A study of Homo sapiens with 10 samples.

Results

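The subject is a set of 32 human genes that the transcription factor p53 is known to activate, measured in cells with and without knockout of APEX1. The members were chosen by name, with earlier results of these data known, so their shares beside those of all genes are descriptions. They are the rows carrying these 32 symbols among the 28281 gene symbols of the deposited counts. All 32 had enough reads to be tested in both cell lines. They were followed in 10 RNA-seq libraries of A549 and H1944, established human lung adenocarcinoma lines, with KO meaning knockout of APEX1 (the gene of the base excision repair endonuclease APE1) and WT meaning wild type. H1944 had 2 KO and 2 WT libraries, grown in RPMI1640 with serum, and A549 had 3 KO and 3 WT libraries, grown in DMEM with serum; the labels name no other allele or agent. The title of the study concerns urea cycle genes, so the question asked here is how far the p53 programme differed between KO and WT cells in each line, gene by gene.

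The labels do not say how the knockouts were made, whether a KO group is 1 clone, or whether replicates were grown as separate cultures. The p-values therefore reflect library-to-library spread alone, and part or all of that may be technical. The A549 KO columns are numbered 65, 16 and 66 with no genotype in the name; KO is the only A549 group left for them.

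p53 is a tetrameric DNA-binding protein that MDM2 keeps scarce in unstressed cells. DNA damage and other stresses stabilise it, and it then raises genes that stop the cell cycle, repair DNA, alter metabolism or prime the cell for death, together with genes such as MDM2 that bring p53 back down. It binds a response element of a pair of decamers, each with the core CNNG, and many of its targets hold such an element near the start of transcription.

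For that reason RefSeq windows (GRCh38.p14) from 250 bases before to 50 bases after a start were searched for the p53 consensus response element. The element has 2 half-sites of 10 bases with a spacer of 0 or 1 base. A gene can have more than 1 start, and the 27305 genes had 35116 windows. The consensus is its own reverse complement, so 1 scan covers both strands, and both CNNG cores had to match. Windows were at hand for 26 members; TP53INP1, RRM2B, TNFRSF10B, TNFRSF10C, PHLDA3 and FBXO22 had none. With at most 2 mismatches in the 20 bases, 4 of these 26 members held a match, and with at most 3 mismatches 7 did. Over all 27305 genes with a window, 0.674% and 2.91% held one under the same limits. A match is a description of letters and not a measured binding site, and its absence says only that these letters are not in this short window. The 7 matches are shown 5′ to 3′ on the gene's strand because the members that carry them, from a ligase of p53 to repair, death and stress genes, are described below. Half-sites are in capitals.
MDM2: agctGGTCAAGTTCAGACACGTTCcgaa
DDB2: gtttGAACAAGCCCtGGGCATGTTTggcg
AEN: agccGGGCTTGCCCGGGCATGTGGgagc
FAS: tcctGGACAAGCCCTGACAAGCCAagcc
GDF15: gcacAGCCATGCCCGGGCAAGAACtc
SESN1: gtctGGACAAGTCTCCACAAGTCAgaaa
FDXR: gcccGGGCAGGAGCGGGCTTGCCCtgcg

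The DDB2 match (chr11:47214979-47214999, + strand) had 0 mismatches with a spacer of 1 base and lay in an exon, and a second match with 1 mismatch and no spacer overlapped it. The matches of MDM2 (chr12:68808923-68808942, + strand, in an intron of the longer transcripts), AEN (chr15:88621306-88621325, + strand, exon) and FAS (chr10:88991309-88991328, + strand, exon) had 2 mismatches. Those of GDF15 (chr19:18386186-18386205, + strand, exon), SESN1 (chr6:109009018-109009037, - strand, intron) and FDXR (chr17:74872996-74873015, - strand, exon) had 3. Measured from the start of its own window, the match began 122 bases before in FAS, 94 before in MDM2 and 49 before in SESN1. It began 34 bases before in AEN and 21 before in FDXR, and 6 and 29 bases after in DDB2 and GDF15. Such a start is 1 RefSeq start and need not be the first base of the gene. By GENCODE every match lay inside its gene, in an exon or intron. The SESN1 gene (chr6:108986437-109094819, - strand) and the GDF15 gene (chr19:18374731-18389176, + strand) begin well outside the window. MDM2 is transcribed both from its first exon and from an internal promoter in its first intron, known as the p53-responsive one, and the 250 bases before that internal start (chr12:68808767-68809016, + strand) are shown for context, with the same match in capitals.
MDM2 internal promoter: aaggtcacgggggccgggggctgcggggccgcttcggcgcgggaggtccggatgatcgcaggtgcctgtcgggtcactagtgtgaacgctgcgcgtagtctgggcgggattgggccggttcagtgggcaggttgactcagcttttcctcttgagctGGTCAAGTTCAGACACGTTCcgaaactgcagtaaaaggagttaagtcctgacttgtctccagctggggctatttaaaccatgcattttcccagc

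Total counts ran from 18314224 to 30219850 per library, and values below are library-size-scaled counts (CPM, with TMM scaling within a line), so levels are not compared between lines. APEX1 itself, the check of the labels, had 87.1 and 87.6 CPM in H1944 KO against 244 and 243 CPM in H1944 WT, and 62.9, 60.1 and 108 CPM in A549 KO 65, 16 and 66 against 167, 254 and 237 CPM in A549 WT 1, 2 and 3. The A549 libraries formed 2 sets that differ in the share of counts on ribosomal RNA genes, 0.284% to 0.337% in the smaller set (KO 65 and WT 1) and 6.45% to 14.2% in the larger set (KO 16, KO 66, WT 2 and WT 3), with KO 16 the highest. Replicate libraries were alike in H1944, with a biological coefficient of variation of 4.74%. In A549 the coefficient was 39%, or 23.8% in the larger set alone. A549 WT 2 and WT 3 were alike, with a chi-square per gene between the 2 libraries of 1.9, where the H1944 pairs had 2.95 and 3.37. The same measure was 240 and 238 for WT 1 against WT 2 and WT 3, and 135 to 273 between A549 KO libraries. A549 members are therefore also given within the sets, KO 65 against WT 1 without a test, and KO 16 and KO 66 against the WT 2 and WT 3 libraries that they share.

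In H1944 the p53 targets were higher in KO almost throughout. Of the 32 members 28, or 87.5%, rose in KO (edgeR's quasi-likelihood test, Benjamini-Hochberg adjusted p under 0.05), and 16 of them at least 2-fold. Over all 16626 genes tested, 33.2% rose and 10.1% rose at least 2-fold. PERP was the 1 member that fell, where 33.9% of all genes fell, and TNFRSF10B, TNFRSF10C and SUSD6 did not pass. The members' median log2 fold change was 1.05, against -0.01 for all genes, and their summed level was 3284 CPM in each KO library, against 1917 and 1936 CPM in the WT libraries. In such bulk RNA a change in all cells and a change in the share of cells that express a gene cannot be told apart. KO and WT libraries did not overlap for 31 members, 28 higher and 3 lower in KO, where 41.1% and 41.4% of all genes lay apart in those directions.

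In A549 no member passed the same test, and most members were nonetheless higher in KO. The adjusted p of the members ran from 0.521 to 0.995 (edgeR), 13 members had an unadjusted edgeR p under 0.05, all higher in KO, and DESeq2 called 2 members higher, GDF15 and BTG2, where it called 0.449% of 18717 genes higher. Over all 15806 genes tested edgeR called 0.00633% higher and 0% lower, and 3.87% were higher at an unadjusted p under 0.05. The median log2 fold change of the members was 0.49, against 0.02 for all genes, with 30 of 32 members above 0, where 52.2% of all genes were. All 3 KO libraries lay above all 3 WT libraries for 13 members (6.11% of all genes) and below them for 1, TNFRSF10C (4.60% of all genes), and the other 18 overlapped. Within the sets, 22 members (68.75%) were above their own WT in each of the 3 KO libraries, where 17.3% of all genes were.

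**Figure D1:**
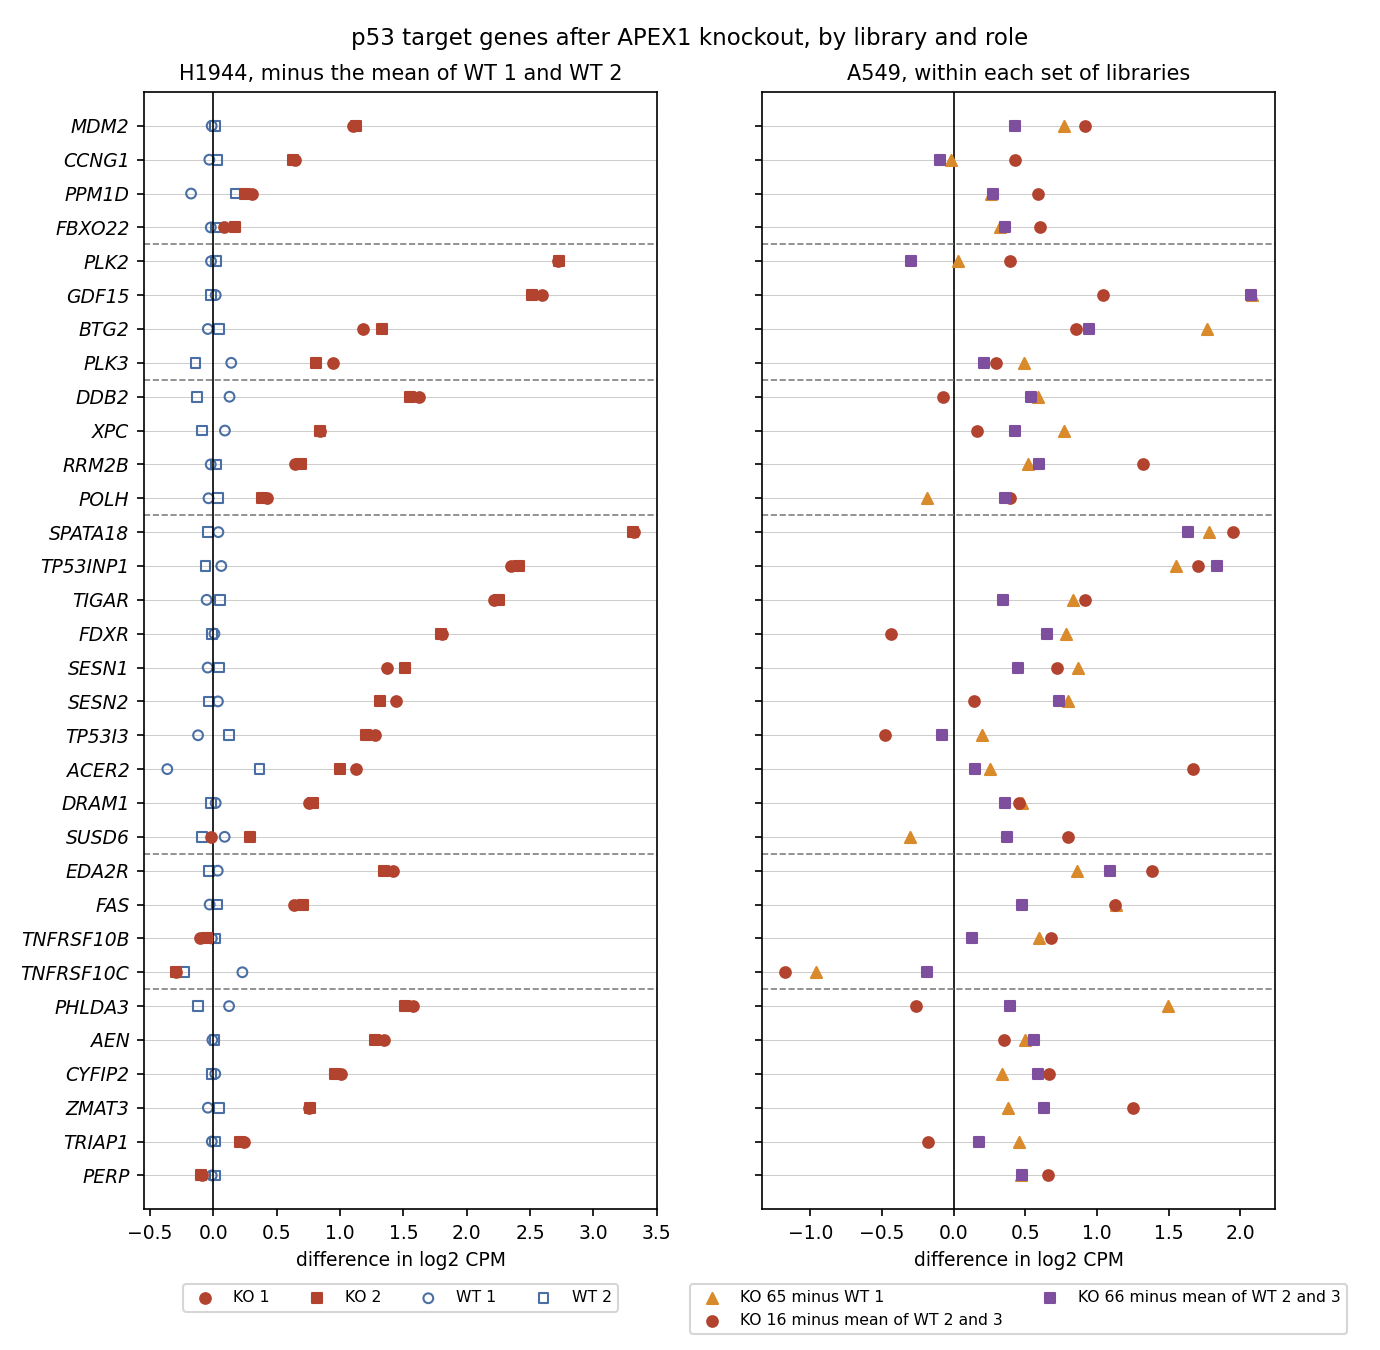
Each row is a p53 target gene, grouped by role between dashed lines. The left panel plots the log2 CPM of each H1944 library minus the mean of the WT libraries, with KO filled and WT open; the right panel plots each A549 KO library minus the WT of its set. In H1944 the KO points of 28 genes lie right of both WT points, with SPATA18 farthest right. In A549 the points of 22 genes all lie right of 0, while TNFRSF10C has all 3 left of it.

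The members that act back on p53 rose in H1944, by unequal amounts. MDM2, the ubiquitin ligase that marks p53 for degradation (chr12:68808176-68850686, + strand), had 577 and 585 CPM in H1944 KO, against 266 and 271 CPM in H1944 WT. On the log2 scale MDM2 rose by 1.12 (SE 0.033, edgeR adjusted p 9.48e-18). In A549 it had 225, 168 and 120 CPM in KO 65, 16 and 66, against 132, 89.3 and 89.3 CPM in WT 1, 2 and 3. The A549 groups overlapped only because WT 1 exceeded KO 66, which belong to different sets, and within the sets the log2 differences were 0.77, 0.91 and 0.43 for KO 65, KO 16 and KO 66. CCNG1, a cyclin that brings a phosphatase to MDM2, rose by 0.64 in H1944 (edgeR adjusted p 6.77e-12) but was above its own-set WT in only 1 A549 KO library, KO 16.

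PPM1D, a phosphatase that removes activating phosphates from p53 and its kinases, and FBXO22, an F-box protein of a ligase complex that acts on p53, rose little in H1944. PPM1D had 17.5 and 16.8 CPM in H1944 KO, against 12.5 and 16 CPM in H1944 WT (log2 fold change 0.27, edgeR adjusted p 0.0372). FBXO22 had 81.0 and 86.2 CPM in H1944 KO, against 75.3 and 77.5 CPM in H1944 WT (0.13, edgeR adjusted p 0.0175). Neither call was made by DESeq2. Both genes were higher than their own-set WT in each A549 KO library, with FBXO22 at 87.1, 87.1 and 73.4 CPM in KO 65, 16 and 66 and 69.6, 56.6 and 58.0 CPM in WT 1, 2 and 3. FBXO22 shares 16.2% of its exon bases with NRG4 on the opposite strand, the most of any member; NRG4 had a log2 fold change of -1.69 in H1944, and whether reads were counted by strand is not given in the sources used here.

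Among genes of growth arrest and secreted signals, PLK2 and GDF15 had some of the largest rises in H1944. PLK2, a polo-like kinase of the stress response and of centriole duplication (chr5:58453982-58460260, - strand), had 240 and 241 CPM in H1944 KO, against 35.9 and 36.8 CPM in H1944 WT. That is a 6.63-fold higher mean level (log2 fold change 2.73, SE 0.043, edgeR adjusted p 1.65e-22). Its A549 levels were 269, 226 and 140 CPM in KO 65, 16 and 66, against 263, 172 and 172 CPM in WT 1, 2 and 3. The A549 groups overlapped, at 0.07 on the log2 scale (SE 0.30), and the sign turned negative without KO 65, WT 2 or WT 3.

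GDF15, a secreted cytokine of the TGF-beta family induced by cell stress (chr19:18374731-18389176, + strand), had 129 and 122 CPM in H1944 KO, against 21.6 and 21 CPM in H1944 WT. Its log2 fold change there was 2.56 (SE 0.054, edgeR adjusted p 3.02e-20). In A549 it had 301, 110 and 227 CPM in KO 65, 16 and 66, against 71.1, 54.0 and 53.2 CPM in WT 1, 2 and 3, and its A549 log2 fold change of 1.84 (SE 0.37) was the largest of the members. Each A549 KO library was above each WT library, with an exact 2-sided permutation p of 0.1, the smallest that 3 against 3 libraries allow. edgeR's adjusted p was 0.521, and DESeq2's was 0.00156.

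BTG2, which slows proliferation through the mRNA deadenylation machinery (chr1:203305491-203309602, + strand), had log2 fold changes of similar size in both lines. It had 41.7 and 46.1 CPM in H1944 KO, against 17.8 and 18.9 CPM in H1944 WT (log2 fold change 1.26, SE 0.077, edgeR adjusted p 3.12e-12). The A549 levels of BTG2 were 23.7, 14.3 and 15.2 CPM in KO 65, 16 and 66, against 6.89, 7.18 and 8.61 CPM in WT 1, 2 and 3, with no overlap and a log2 fold change of 1.23 (SE 0.27, edgeR adjusted p 0.562; DESeq2 adjusted p 0.0352). PLK3, another polo-like kinase of the stress response, rose by 0.87 in H1944 (edgeR adjusted p 9.62e-07) and lay apart in A549 by less, at 15.4, 12.7 and 11.9 CPM in KO 65, 16 and 66 and 10.9, 10.2 and 10.4 CPM in WT 1, 2 and 3.

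**Figure D2:**
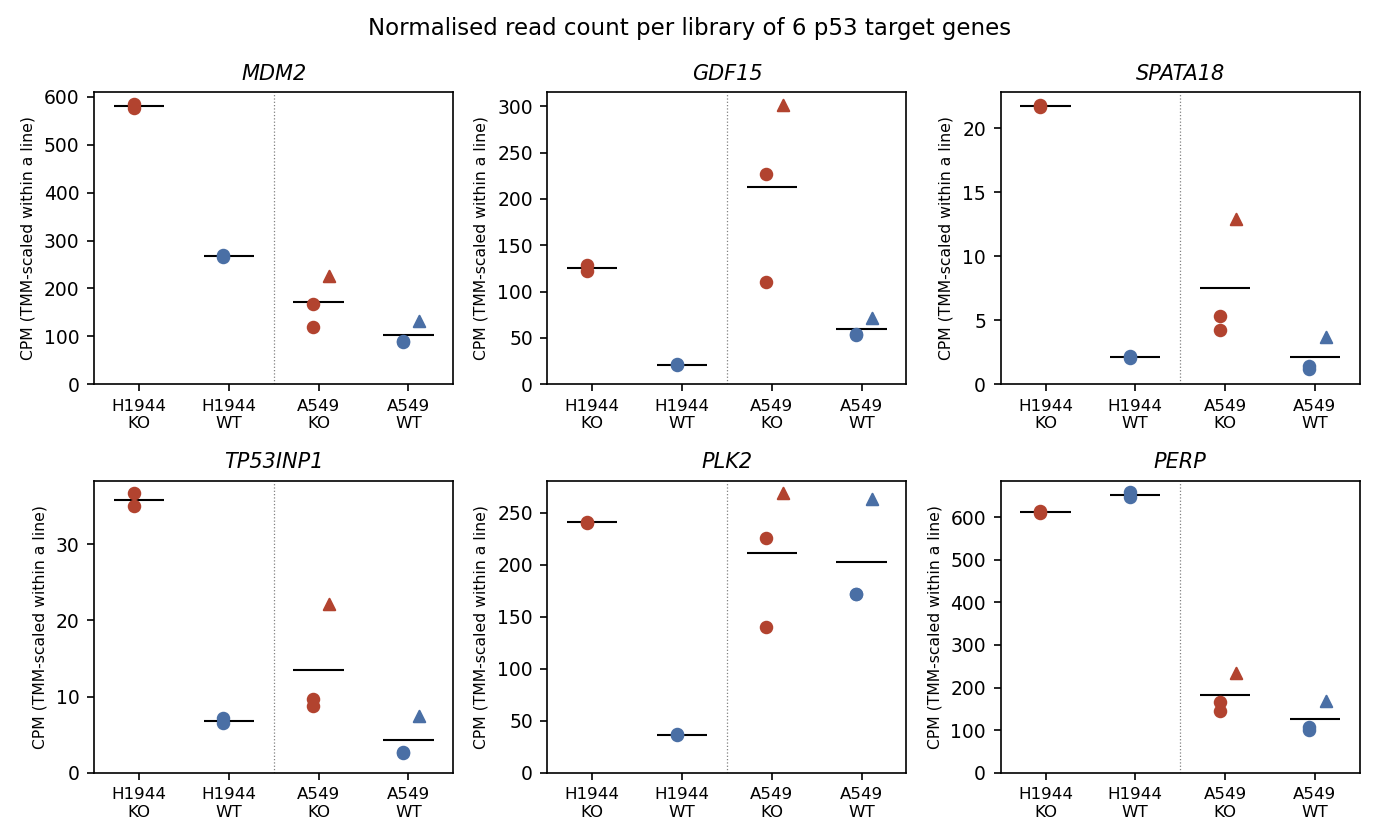
CPM per library of MDM2, GDF15, SPATA18, TP53INP1, PLK2 and PERP, with KO in red and WT in blue, KO left of WT in each line, and a bar at each group's mean. Triangles are the smaller A549 set (KO 65 and WT 1). MDM2, GDF15, SPATA18 and TP53INP1 are higher in KO in both lines, PLK2 in H1944 (241 against 36.4 CPM on average), and PERP is lower in H1944 KO by a small step (612 against 653 CPM).

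The 4 genes of DNA repair and nucleotide supply rose in H1944, where 33.2% of all genes did. DDB2, which recognises ultraviolet damage in chromatin, had 82.6 and 78.5 CPM in H1944 KO, against 29.3 and 24.5 CPM in H1944 WT (log2 fold change 1.58, SE 0.067, edgeR adjusted p 4.15e-14). XPC, its partner in nucleotide excision repair, had 62.7 and 62.9 CPM in H1944 KO, against 37.3 and 32.9 CPM in H1944 WT (0.84, SE 0.062, edgeR adjusted p 8.89e-11). RRM2B, the p53-inducible small subunit of ribonucleotide reductase, rose by 0.67, and POLH, a translesion DNA polymerase, by 0.40.

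XPC shares 6.6% of its exon bases with LSM3 on the opposite strand, which had a log2 fold change of -0.15 in H1944. In A549 only XPC of these 4 had KO and WT libraries apart, at 85.0, 61.5 and 73.9 CPM in KO 65, 16 and 66 and 49.9, 53.4 and 56.6 CPM in WT 1, 2 and 3. RRM2B had 105, 85.9 and 51.8 CPM in KO 65, 16 and 66, against 73.3, 36.2 and 32.5 CPM in WT 1, 2 and 3, so the groups overlapped between the sets and not within them. DDB2 was higher in KO 65 (68.4 CPM, against 45.4 CPM in WT 1) and in KO 66 (95.5 CPM), but KO 16 (62.5 CPM) lay below WT 2 and WT 3 (64.1 and 67.6 CPM). POLH was lower in KO 65 than in WT 1, at 23.6 against 26.9 CPM, and higher in KO 16 and KO 66 than in WT 2 and WT 3.

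Of the 10 members of stress, redox and metabolism, 9 rose in H1944, where 33.2% of all genes did. Their median log2 fold change was 1.42. SPATA18, which takes part in the removal of damaged mitochondrial proteins (chr4:52051331-52097292, + strand), had 21.8 and 21.7 CPM in H1944 KO, against 2.17 and 2.05 CPM in H1944 WT. Its mean level was 10.3-fold higher, the largest fold of the 32 members (log2 fold change 3.36, SE 0.14, edgeR adjusted p 2.39e-15). Levels in A549 were 12.9, 5.35 and 4.26 CPM in KO 65, 16 and 66, against 3.69, 1.19 and 1.45 CPM in WT 1, 2 and 3. All A549 KO libraries were higher than all WT libraries, and the difference was similar in each set, 1.78, 1.95 and 1.63 on the log2 scale for KO 65, KO 16 and KO 66.

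TP53INP1, a nuclear protein that promotes p53 activity and autophagy, showed the same order. It had 35.0 and 36.7 CPM in H1944 KO, against 7.13 and 6.53 CPM in H1944 WT (log2 fold change 2.39, SE 0.094, edgeR adjusted p 1.51e-15). A549 cells had it at 22.1, 8.77 and 9.64 CPM in KO 65, 16 and 66, against 7.48, 2.73 and 2.54 CPM in WT 1, 2 and 3. The groups did not overlap, and the log2 differences within the sets were 1.55, 1.70 and 1.84, although over all 6 libraries the SE was 0.56 because WT 1 and KO 65 lay above the other libraries of their groups.

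TIGAR, a phosphatase that lowers glycolytic flux (chr12:4307763-4354593, + strand), had 90.7 and 93.4 CPM in H1944 KO, against 18.8 and 20.2 CPM in H1944 WT (log2 fold change 2.24, SE 0.060, edgeR adjusted p 1.59e-18). Its A549 levels were 68.2, 59.7 and 40.1 CPM in KO 65, 16 and 66, against 38.4, 30.1 and 33.3 CPM in WT 1, 2 and 3, with no overlap and a smaller log2 fold change of 0.72 (SE 0.24). The sestrins SESN1 and SESN2, which restrain mTORC1 signalling, rose by 1.45 and 1.38 in H1944 (edgeR adjusted p 2.61e-12 and 1.24e-12). SESN1 had 16.1, 11.3 and 9.37 CPM in A549 KO 65, 16 and 66, against 8.79, 6.30 and 7.43 CPM in WT 1, 2 and 3, and SESN2 likewise did not overlap.

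FDXR, a mitochondrial reductase of electron transfer to cytochromes P450 (chr17:74862497-74873031, - strand), and TP53I3, a quinone oxidoreductase, rose clearly in H1944 and had no common direction in A549. FDXR had 88.6 and 88.1 CPM in H1944 KO, against 25.5 and 25.2 CPM in H1944 WT (log2 fold change 1.80, edgeR adjusted p 1.84e-17). In A549 it had 75.5, 62.8 and 134 CPM in KO 65, 16 and 66, against 43.7, 86.1 and 83.8 CPM in WT 1, 2 and 3, so KO 16 lay below both WT libraries of its set. TP53I3 rose by 1.24 in H1944 (edgeR adjusted p 1.14e-12), and in A549 it had 53.4, 59.1 and 77.6 CPM in KO 65, 16 and 66, against 46.7, 84.0 and 80.7 CPM in WT 1, 2 and 3.

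The remaining genes of this role moved less or were low. DRAM1, a lysosomal membrane protein of autophagy, rose by 0.77 in H1944 (edgeR adjusted p 1.66e-11). ACER2, a Golgi ceramidase, had only 43 and 41 counts in H1944 KO, against 11 and 18 counts in H1944 WT, and its rise (log2 fold change 1.11, SE 0.39, edgeR adjusted p 0.0157) was not called by DESeq2. SUSD6, a membrane protein with a sushi domain, had 10.3 and 12.8 CPM in H1944 KO, against 11.1 and 9.82 CPM in H1944 WT, the only member whose H1944 libraries overlapped. DRAM1 and ACER2 were above their own-set WT in each A549 KO library, and SUSD6 in KO 16 and KO 66 only.

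The 4 members grouped as death receptors and their relatives did not all move alike in H1944. Of these 2 rose, where 33.2% of all genes did. EDA2R, a receptor for a form of ectodysplasin (chrX:66595637-66639298, - strand), had 51.4 and 49.0 CPM in H1944 KO, against 19.7 and 18.7 CPM in H1944 WT (log2 fold change 1.39, edgeR adjusted p 1.22e-13). The A549 levels of EDA2R were 29.4, 23.4 and 19.1 CPM in KO 65, 16 and 66, against 16.1, 9.96 and 7.98 CPM in WT 1, 2 and 3, with no overlap. FAS, the receptor of FAS ligand (chr10:88990582-89015785, + strand), had 46.7 and 48.9 CPM in H1944 KO, against 29.3 and 30.6 CPM in H1944 WT (0.68, edgeR adjusted p 5.50e-09).

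FAS in A549 had 25, 14.2 and 8.97 CPM in KO 65, 16 and 66, against 11.4, 6.56 and 6.30 CPM in WT 1, 2 and 3, overlapping only between the sets. FAS shares 8.9% of its exon bases with ACTA2 on the opposite strand, and ACTA2 rose by 1.24 in H1944 and had 1.09 in A549; the part of such reads in FAS was not tested. TNFRSF10B, a death receptor for TRAIL, had 130 and 136 CPM in H1944 KO, against 140 and 142 CPM in H1944 WT (log2 fold change -0.08, edgeR adjusted p 0.0758), but was higher than its own-set WT in each A549 KO library, at 268, 212 and 145 CPM in KO 65, 16 and 66 and 177, 134 and 131 CPM in WT 1, 2 and 3. TNFRSF10C, a decoy receptor for TRAIL without a death domain, was the 1 member lower in every KO library of both lines. It had 3.45 and 3.45 CPM in H1944 KO, against 5.00 and 3.62 CPM in H1944 WT, and 1.16, 0.938 and 1.95 CPM in A549 KO 65, 16 and 66, against 2.33, 2.20 and 2.27 CPM in A549 WT 1, 2 and 3, and passed the test in neither line (edgeR adjusted p 0.184 and 0.939).

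Among the other effectors of cell death and survival, 5 of 6 rose in H1944, where 33.2% of all genes did. AEN, a nuclease of DNA breakdown in dying cells (chr15:88621296-88632282, + strand), had 93.4 and 89.1 CPM in H1944 KO, against 36.5 and 36.9 CPM in H1944 WT (log2 fold change 1.32, SE 0.052, edgeR adjusted p 1.69e-15). In A549 it had 108, 103 and 120 CPM in KO 65, 16 and 66, against 76.1, 79.6 and 82.4 CPM in WT 1, 2 and 3. The A549 groups lay apart, by 0.47 on the log2 scale (SE 0.16), the smallest SE of the 32 members in that line. CYFIP2, a subunit of an actin regulatory complex, rose by 0.99 in H1944 and also lay apart in A549, at 54.3, 55.5 and 52.6 CPM in KO 65, 16 and 66 and 43.0, 35.4 and 34.6 CPM in WT 1, 2 and 3. CYFIP2 shares 0.6% of its exon bases with ADAM19 on the opposite strand, which rose by 6.68 on the log2 scale in H1944.

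PHLDA3, an inhibitor of AKT signalling (chr1:201464383-201469237, - strand), had 144 and 138 CPM in H1944 KO, against 52.4 and 44.1 CPM in H1944 WT (log2 fold change 1.54, edgeR adjusted p 4.63e-11). Levels in A549 were 105, 77.3 and 122 CPM in KO 65, 16 and 66, against 37.2, 93.7 and 91.8 CPM in WT 1, 2 and 3. Its within-set difference was thus 1.49 on the log2 scale for KO 65 and -0.26 for KO 16. ZMAT3, an RNA-binding splicing regulator, and TRIAP1, a small mitochondrial survival protein, rose by 0.76 and 0.23 in H1944, and in A549 KO 16 was the highest of the within-set differences for ZMAT3 (1.25) and the lowest for TRIAP1 (-0.18).

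PERP, a membrane protein of desmosomes and an effector of cell death, was the exception in H1944. It had 614 and 610 CPM in H1944 KO, against 647 and 658 CPM in H1944 WT (log2 fold change -0.09, SE 0.031, edgeR adjusted p 0.0116). Without either KO library the call was lost. A549 cells had PERP at 234, 165 and 145 CPM in KO 65, 16 and 66, against 169, 108 and 102 CPM in WT 1, 2 and 3, higher than the own-set WT in each KO library by 0.47 to 0.66 on the log2 scale. Of the 7 epithelial markers tested in H1944, 4 fell and 2 rose, where 33.9% and 33.2% of all genes did. Among those that fell were EPCAM, with a log2 fold change of -6.21, and CDH1, with -4.72. KRT18 rose with 0.98 and KRT8 with 0.81. The part of these markers in the level of PERP was not tested.

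Within A549, WT 1 lay outside the range of WT 2 and WT 3 for every member, as it did for most genes. This is an order of values without a test or a limit on size. POLH, for example, had 26.94 CPM in WT 1 and 26.87 CPM in WT 3. WT 1 was below both WT 2 and WT 3 for 9 members (43.3% of all genes) and above both for the other 23 (49.0% of all genes). Of the 9, FDXR, PHLDA3, TP53I3, DDB2 and TRIAP1 were below their set's WT in KO 16, and SESN2, XPC, BTG2 and AEN were above it. The first 5 and TNFRSF10C are the 6 members below their set's WT in KO 16, the library with 14.2% of its counts on ribosomal RNA genes; the part of that share in these values was not tested. KO 65 and KO 66 were each below their own-set WT for 4 members. Of all 15806 genes, 8402, 7453 and 7793 were below in KO 65, KO 16 and KO 66. In KO 65, KO 16 and KO 66 the members had median log2 differences of 0.51, 0.63 and 0.43, against -0.03, 0.06 and 0.01 for all genes. At least 2-fold above their own-set WT were 6, 8 and 4 members in KO 65, KO 16 and KO 66, where 5.54%, 10.5% and 4.90% of all genes were, and GDF15, TP53INP1 and SPATA18 were among them in all 3 libraries.

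In the larger A549 set alone, 24 members had both KO libraries above both WT libraries (25.4% of all genes), 2 had both below (23.7% of all genes) and 6 overlapped. The median log2 fold change there was 0.43, and 11 members had an unadjusted edgeR p under 0.05, where 4.91% of all genes were higher and 4.93% lower at that threshold. None passed after adjustment, with edgeR adjusted p from 0.386 to 0.955, as no gene of the 15776 tested did (0% higher and 0% lower).

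Set side by side, the lines shared most directions. The log2 fold change was above 0 in both lines for 28 of 32 members, or 87.5%, against 24.8% of the 14985 genes tested in both. The 4 others were TP53I3, TNFRSF10B, PERP and TNFRSF10C, and TNFRSF10C was below 0 in both lines. Called higher in H1944 and above the own-set WT in every A549 KO library were 20 members, or 62.5%, against 5.90% of those genes. Across the 32 members the log2 fold changes of the lines had a Pearson r of 0.599 and a Spearman rho of 0.402, as a description of genes that share libraries within a line; over all 14985 genes these were 0.009 and -0.01. SPATA18, GDF15 and TP53INP1 had the largest A549 log2 fold changes of the 32 and were among the 5 members with the largest in H1944, and PLK2 and TIGAR completed those 5.

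The A549 change was below the H1944 change for 25 of 32 members, and for 8843 of all 17677 genes. For 3 of these members the difference passed the test of all 10 libraries (edgeR adjusted p under 0.05). Of the 17677 genes 2.85% passed in that direction and 4.10% in the other. PLK2 differed by -2.68 on the log2 scale (SE 0.40, edgeR adjusted p 0.00484), TIGAR by -1.54 (SE 0.31, edgeR adjusted p 0.0197) and AEN by -0.87 (SE 0.20, edgeR adjusted p 0.0319). For the other 29 members no difference was shown, and with the SEs of A549 sizeable ones cannot be told from none. With A549 reduced to its larger set 10 members passed. The A549 change was the lower one for 9 of them, PLK2, TIGAR, AEN, SESN1, FDXR, DDB2, SPATA18, TP53I3 and PHLDA3, where 9.52% of 17463 genes passed in that direction, and the higher one for PERP, where 9.92% did.

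**Figure D3:**
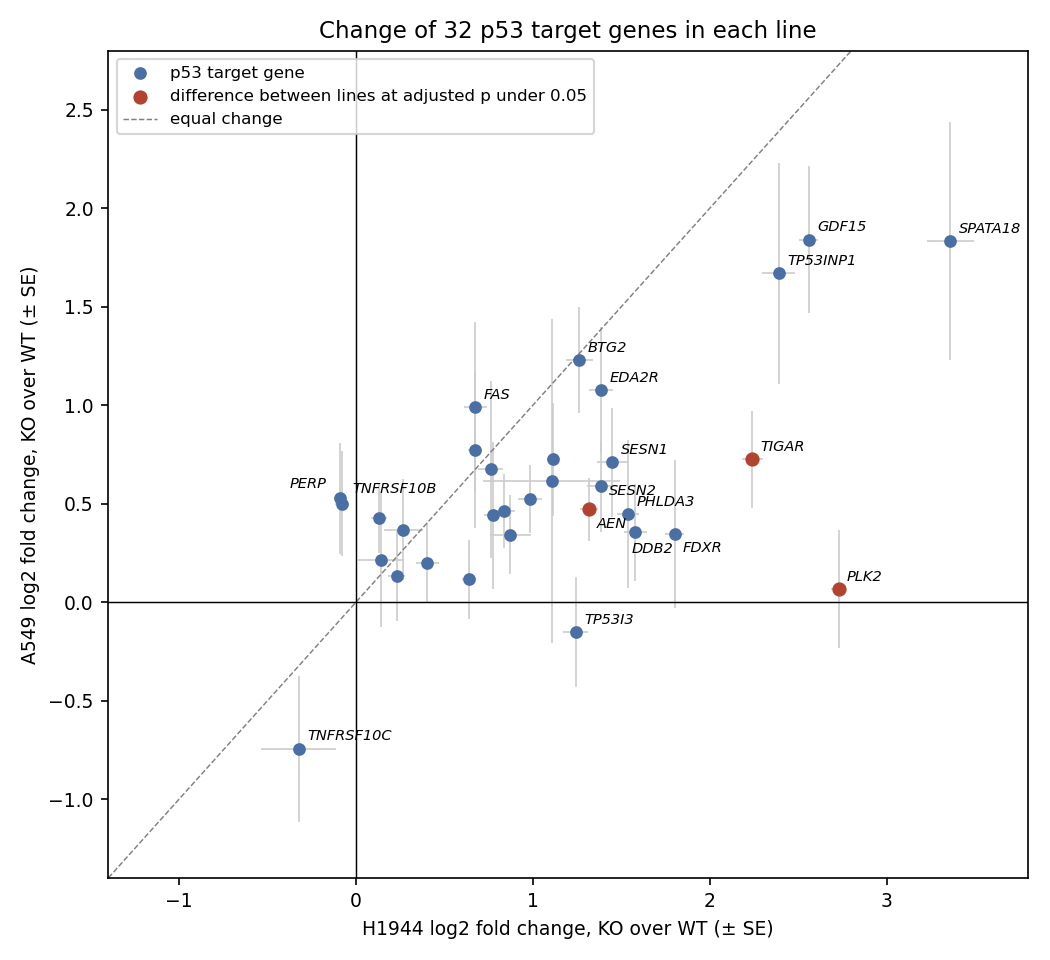
Log2 fold change of KO over WT for each of the 32 p53 target genes, H1944 on the x axis and A549 on the y axis, with bars of 1 SE; the dashed line marks equal change. Most points lie in the upper right below that line, SPATA18, GDF15 and TP53INP1 lie farthest up and right, and PLK2, TIGAR and AEN (red) are the genes whose difference between lines passed.

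The level in WT cells and the size of the change were at most weakly related. Over the 32 members the WT log2 CPM and the log2 fold change had a Pearson r of -0.358 in H1944 and -0.26 in A549, with a Spearman rho of -0.328 and -0.33; both quantities rest on the same WT libraries.

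Beyond the members, 30 other known p53 targets were followed, 29 of them tested in each line. In H1944 16 rose and 10 fell, where 33.2% and 33.9% of all genes did, with a median log2 fold change of 0.42. CDKN1A, the inhibitor of cyclin-dependent kinases that carries the arrest, rose by 2.86, TRIM22, an antiviral ubiquitin ligase, by 4.76, GADD45A, a stress sensor, by 2.08, RPS27L, a ribosomal protein paralogue, by 1.52 and BAX, a pore-forming effector of apoptosis, by 1.30, while CMBL, a hydrolase, fell by 0.77 on the log2 scale (edgeR adjusted p 7.91e-24 to 1.10e-14). PMAIP1, a BH3-only activator of apoptosis, E2F7, a repressor of E2F targets, and TNFRSF10D, another decoy receptor for TRAIL, fell by 1.12, 1.26 and 1.30 in H1944, and these 3 were named after their values were seen. In A549 none of the 29 passed in edgeR. An unadjusted edgeR p under 0.05 was reached by 7, where 3.87% of all genes were higher and 1.80% lower. CDKN1A had 1.36 on the log2 scale (SE 0.27). Above 0 were 25 of the 29, where 52.2% of all genes were, and the median was 0.39.

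Among 18 tested genes that regulate p53 or are its paralogues, 2 rose and 11 fell in H1944, where 33.2% and 33.9% of all genes did. Their median log2 fold change was -0.15. CHEK2, a kinase that phosphorylates p53, rose by 0.54 (edgeR adjusted p 2.90e-07). MDM4, the MDM2 partner that masks p53, fell by 0.80, DYRK2, another p53 kinase, by 0.45, CHEK1, a checkpoint kinase, by 0.34, COP1, another ubiquitin ligase of p53, by 0.33 and EP300, an acetyltransferase of p53, by 0.30 on the log2 scale. In A549 none of the 18 passed in edgeR. An unadjusted edgeR p under 0.05 was reached by 1, where 3.87% of all genes were higher and 1.80% lower. The median was 0.05, and MDM4 had a log2 fold change of -0.21 there.

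Cell cycle genes that are lowered through p53 and CDKN1A fell in H1944, 13 of 15 with none higher, where 33.9% of all genes fell and 33.2% rose. Their median log2 fold change was -0.65. CCNA2 and CCNB1, cyclins of the G2 and M phases, fell by 0.96 and 0.65, CDK1, their kinase, by 0.88, FOXM1, a transcription factor of mitotic genes, by 0.73, BRCA1, a repair gene with peak levels in S phase, by 1.16 and BIRC5, a mitotic and survival protein, by 0.63 on the log2 scale (edgeR adjusted p 9.38e-15 to 3.38e-12). In A549 all 15 were below 0 over the 6 libraries, where 7563 of all 15806 genes were, and the median of the 15 was -0.29. None passed in edgeR, with 0 at an unadjusted p under 0.05. Within the sets 0, 4 and 3 of the 15 were above 0 in KO 65, KO 16 and KO 66, where 46.8%, 52.8% and 50.7% of all genes were.

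GDF15 and SESN2 are also known to respond to ATF4, so 12 genes of the integrated stress response were followed beside them. In H1944 3 rose and 7 fell, where 33.2% and 33.9% of all genes did, with a median log2 fold change of -0.26. ASNS, an asparagine synthetase, fell by 1.07, PSAT1, an enzyme of serine synthesis, by 0.54, SLC7A11, a cystine carrier, by 0.42, VLDLR, a lipoprotein receptor, by 0.80 and ATF3, a stress-induced transcription factor, by 1.19, while PPP1R15A, a phosphatase subunit that ends the response, rose by 0.27 on the log2 scale (edgeR adjusted p 5.01e-15 to 1.33e-05). In A549 none passed in edgeR, and the median was -0.02. An unadjusted edgeR p under 0.05 was reached by 3, where 3.87% of all genes were higher and 1.80% lower. These were ATF3 and CHAC1, with log2 fold changes of 1.41 and 1.52, and TRIB3, with -0.54. CHAC1 and TRIB3 were named after their values were seen.

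**Figure D4:**
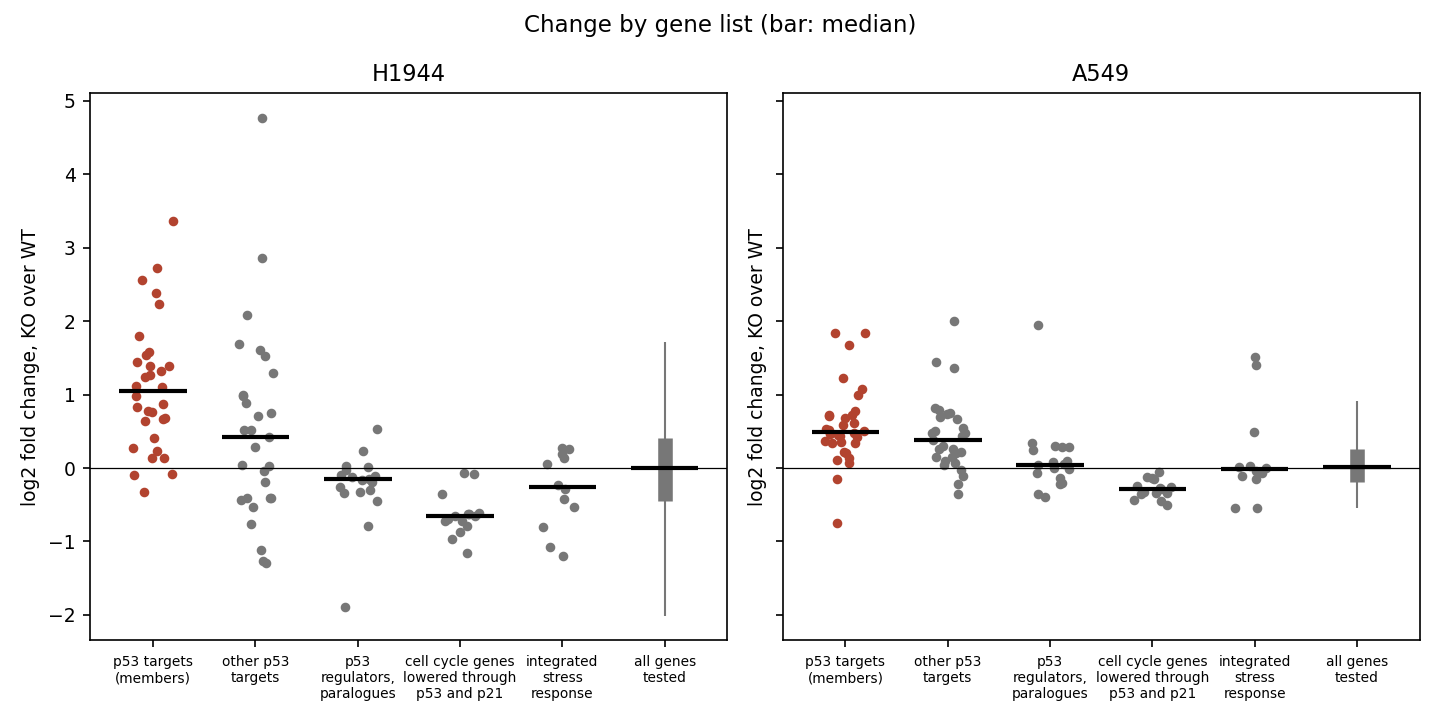
Log2 fold change of KO over WT for the members (red) and 4 other lists (grey points), H1944 left and A549 right, with a bar at each median; for all genes tested the thick line spans the middle 50% and the thin line the middle 90%. The medians of the members are 1.05 in H1944 and 0.49 in A549, and those of the cell cycle genes -0.65 and -0.29.

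The identity of the cells was checked by markers of lung adenocarcinoma epithelium and of other cell types. Of 9 epithelial markers, 6 had at least 10 counts in each H1944 KO library and 7 in each H1944 WT library. In each A549 library of both genotypes 7 did. NKX2-1, a defining lung marker, had 0 counts in all H1944 libraries, at most 1 count in A549 KO and at most 3 in A549 WT. In H1944 KO the markers EPCAM, CDH1, KRT19 and NAPSA fell, with log2 fold changes of -6.21, -4.72, -4.23 and -3.40, KRT8 and KRT18 rose, with 0.81 and 0.98, and the summed level of the list was 17500 to 17900 CPM in H1944 KO and 9800 to 9950 CPM in H1944 WT. In A549 it was 11500 to 25600 CPM in KO and 10600 to 25600 CPM in WT. The 6 fibroblast markers summed to 12.1 to 14.2 CPM in H1944 KO and 13.9 to 15.8 CPM in H1944 WT, and to 10.7 to 16.9 CPM in A549 KO and 5.15 to 8.25 CPM in A549 WT, with COL1A2 at 0 counts in H1944 KO and in both A549 groups. Single fibroblast markers moved in both directions in H1944: COL3A1 rose by 3.62 on the log2 scale (58 and 77 counts in KO, 7 and 1 counts in WT, edgeR adjusted p 1.07e-06) and DCN by 1.18 (edgeR adjusted p 0.0455), and COL1A1 had -0.78 (edgeR adjusted p 7.00e-05). Of 5 leukocyte markers only CD68, which other cells also express, had at least 10 counts in each library of a group, the list summing to 52.4 to 54.4 CPM in H1944 KO and 27.0 to 29.1 CPM in H1944 WT, and CD3E was at 0; the 4 endothelial markers summed to at most 2.44 CPM in any library, with KDR at 0. The part of the epithelial change in the members' rises in H1944 was not tested.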

How the data were processed

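RNA-seq of A549 and H1944 cells was used as deposited by the authors, as raw counts per gene symbol in 1 table per line. Per the submitters' processing notes, the tools were Trim Galore 0.5.0, HISAT2 2.1.0, featureCounts 1.6.4 and DESeq2 (no version) on hg38; per the labels' protocols, RNA was poly(A)-selected and sequenced in pairs. Annotation, strand setting and the handling of multi-mapped reads are not given in the sources used here; by GENCODE exons, 9 members overlap another counted gene, none over 20%.

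Genes were filtered with filterByExpr (minimum count 10), scaled by TMM, and tested in edgeR 4.0.16 (R 4.3.3) with its robust quasi-likelihood test within each line, adjusted by Benjamini-Hochberg over all genes tested, with 0.05 as the threshold. The difference between lines came from 1 fit of all 10 libraries. SEs were approximated by dividing the size of the log2 fold change by the root of the F statistic. Log2 CPM used a prior count of 2. For single members, A549 groups were also compared by an exact 2-sided permutation test. No per-sample column was left out. Members and lists were chosen with earlier results of these data known. All 32 members are named, with APEX1, MDM4 and CDKN1A and up to 6 genes with the smallest H1944 adjusted p from each other pathway list, while marker lists are given by counts and sums with examples; 1 gene of this rule is not reported here. Alternatives were DESeq2 1.42.0, voom of limma 3.58.1, other size factors, no filter, non-robust dispersions, 1 fit for both lines, a set term or the larger set alone in A549, the replicate number as a block in H1944, and leaving out each library. The fits were also run on simulated counts drawn without the 2 A549 sets, and no conclusion is drawn from those runs here. Counts between 11 and 18 per library, as ACER2 has in H1944 WT, are the lowest of a member in that line and limit its precision, and without molecular identifiers reads are not separate molecules.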

Additional observations from a re-analysis of the deposited data

Results flagged for a closer look

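Of 121 listed genes tested, members and other lists together, 13 changed differently in A549 and H1944 in the test of the difference itself, over all 10 libraries; of all 17677 genes, 2.85% passed with the A549 change below the H1944 change and 4.10% with it above. Of these 13, 3 are members. The A549 change minus the H1944 change was -2.68 for PLK2 (SE 0.40, edgeR adjusted p 0.00484), -1.54 for TIGAR (SE 0.31, edgeR adjusted p 0.0197) and -0.87 for AEN (SE 0.20, edgeR adjusted p 0.0319) on the log2 scale. CDKN1A, which is not among the 32 members, gave -1.53 (SE 0.38, edgeR adjusted p 0.0452). These 4 genes rose in H1944. TIGAR, AEN and CDKN1A were also above their own-set WT in each A549 KO library, and PLK2 was so in KO 65 and KO 16 only. Among the other p53 targets GADD45A gave -1.41 (edgeR adjusted p 0.0288), SLC12A4 -1.50 (edgeR adjusted p 0.0043) and ABHD4 0.80 (edgeR adjusted p 0.0290). In the remaining lists the value was 2.58 for ATF3 (edgeR adjusted p 0.00798), 3.82 for TP63 (edgeR adjusted p 0.0447), 1.74 for COL1A1 (edgeR adjusted p 0.0217), 7.66 for EPCAM (edgeR adjusted p 0.000398), 5.40 for CDH1 (edgeR adjusted p 0.000307) and 3.70 for NAPSA (edgeR adjusted p 0.00831). SLC12A4, ABHD4 and TP63 are named here after their values were seen.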

How the results depend on the processing

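In H1944 the count of members that rose was 25 with DESeq2 (22.6% of all genes rose there), 27 with non-robust dispersions (33.1%), 19 in the fit of all 10 libraries (6.66%) and 28 with the other size factors (33.2%), no filter (25.6%), limma-voom (33.1%) or the replicate block (33.5%); without each library in turn it was 25 to 28 (29.6% to 30.8%). PPM1D, FBXO22 and ACER2 were the calls that DESeq2 lost. The count that fell was 0 in the fit of all 10 libraries, 2 with the replicate block, which added TNFRSF10B, and 0 to 2 without each library; PERP was lost without KO 1 or KO 2. Whether equal numbers pair the H1944 libraries is not known. Deviations of libraries with the same number correlated at 0.0128 across genes, which cannot settle it with 2 libraries a group. No paired analysis was possible in A549 because the KO columns carry no number that matches a WT library. In A549 DESeq2 called 2 members higher (0.449% of all genes), and the median log2 fold change ran from 0.41 without KO 65 to 0.63 without WT 1. With the larger A549 set alone, 10 members differed between lines (19.4% of all genes), and TRIAP1 turned to -0.0406 in A549. Leaving out each library turned the sign of 5 values that had not passed the threshold, with ranges of -0.0175 to 0.294 for SUSD6 in H1944, and in A549 of -0.0632 to 0.551 for FDXR, -0.147 to 0.300 for PLK2, -0.00979 to 0.236 for CCNG1 and -0.0399 to 0.262 for TRIAP1. The cause of these moves was not tested. Every member passed the filter on low counts in both lines; ACER2, at 13 to 68 counts in A549 KO and 11 to 52 in A549 WT, had an SE of 0.82 there.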
